A study of Mus musculus with 2 samples.

Results

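The regions described here are stretches of methylated liver DNA for which the deposited lists give no transcript within 10 kb. They were chosen by 1 rule: a region of the longer list of each mouse, on an autosome, whose field for the relation to a transcript is empty. In Pemt-/-, 49288 of 95650 autosomal regions met the rule (51.5%, Wilson 95% confidence interval 51.2 to 51.8), out of 97063 regions on all sequences. In Pemt+/+, 65992 of 129116 met it (51.1%, 50.8 to 51.4), out of 131279. None of them carried a transcript in any other field. They are called unannotated regions below, because the label "intergenic" held only in part, as the check of the label shows.

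One library was made from liver of each of 2 genotypes, Pemt-/- and Pemt+/+, and each library is called a mouse below. Both mice were fed HFHS, a chow high in fat and sucrose. By the series records the chow was started at an age of 5 weeks and the liver was taken at 25 weeks, whereas the study's methods give shorter feeding times for these livers. The methods also give more than 1 animal of each genotype, and the sample labels do not give how many went into each library. Pemt makes phosphatidylcholine, a membrane lipid, by adding methyl groups to another phospholipid, and the deletion is present in every cell, not in hepatocytes alone. Whole liver was used, so the lists hold DNA of all its cell types, and no marker of a cell type can be read from a list of methylated regions. Methylated DNA was captured with an enrichment kit and sequenced, and a region is a place where the reads, called tags, pile up above background. With 1 library per genotype, a difference between genotypes cannot be told apart from one between animals or libraries. No test was made, and every interval below is a 95% interval that covers counting error only. The longer list of Pemt-/- had fewer regions and fewer tags than that of Pemt+/+, and the depth of each library cannot be read from them, so lower tag numbers in Pemt-/- are not read as less methylation.

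In mammals most CpG cytosines are methylated outside of CpG islands and active promoters and enhancers, and the long stretches between genes are no exception. Much of that DNA derives from transposons and satellite repeats, and methylation is known to keep many of them silent. Capture of methylated DNA favours places where methylated CpGs lie close together, so a list of captured regions is not a map of every methylated cytosine. Repeats that exist in more copies in the animal than in the assembly collect the tags of all copies in 1 place.

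The label was checked against RefSeq, of which a table for a later assembly gave gene names, lengths and order. Of 20048 autosomal protein-coding genes in that table, 6261 (31.2%) were named in none of the 4 lists used here. Short genes can lie between regions and be missed for that reason, and 44.7% of genes of up to 10 kb were not named. The share levelled off with length: it was 18.4% of the 1354 genes of 100 to 200 kb, 18.4% of the 723 genes of 200 to 500 kb, and 20.8% of the 216 genes over 500 kb. The unnamed long genes included Rbfox1, a neuronal splicing regulator with a RefSeq length of 1528 kb, and Wwox, which encodes an oxidoreductase. Between Eef2kmt and Tmem114, the nearest listed genes on either side of Rbfox1, all 70 regions of Pemt-/- and 97 of 99 of Pemt+/+ were unannotated. Between Clec3a and Maf, which flank Wwox, 144 of 146 and 185 of 187 were.

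Of 427 unnamed genes over 100 kb, those that overlapped a listed gene or could not be placed between listed genes were left aside, as were all shorter ones. The stretches between the listed neighbours of the remaining 366 held 9162 unannotated regions in Pemt-/- (18.6%) and 12360 in Pemt+/+ (18.7%). Those numbers are upper limits for these 366 genes, since a stretch is longer than the gene in it. The positions of the genes themselves were not used, because the RefSeq table and the lists are of different assemblies. Inside and outside these stretches the regions were alike in their median tags, 13 in Pemt-/- and 17 in Pemt+/+ on both sides. Fold enrichment was slightly lower inside, with medians of 17.5 against 17.9 in Pemt-/- and 17.1 against 17.7 in Pemt+/+. Sharing with the other mouse was 84.5% inside and 84.3% outside in Pemt-/-, and 62.6% (61.7 to 63.5) inside and 63.0% (62.6 to 63.4) outside in Pemt+/+. The values below therefore describe regions away from any listed transcript, among them regions that lie in genes.

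The share of unannotated regions differed between autosomes and was nearly the same in both mice. It was lowest on chromosome 11, with 40.5% (39.1 to 41.9) in Pemt-/- and 39.4% (38.3 to 40.6) in Pemt+/+. Chromosome 19 came next, with 42.7% and 42.9%. It was highest on chromosome 12, with 59.1% (57.6 to 60.6) and 58.9% (57.6 to 60.1), and chromosome 3 stood just below with 58.7% and 58.3%, within the counting error of chromosome 12. Chromosome 11 is one of the most gene-rich mouse autosomes. The share was higher in Pemt-/- on 14 of 19 autosomes. Over all autosomes the direction depended on how the lists were cut, for a reason that was not tested. With the Pemt+/+ list cut to the size of the other, the share was 52.2% (51.9 to 52.5) in Pemt+/+ against 51.5% in Pemt-/-. With the upper 50% of each list by score it was 53.4% (53.1 to 53.8) in Pemt+/+ against 53.8% (53.3 to 54.2) in Pemt-/-. With the full lists the largest gap on an autosome was 1.12 percentage points, on chromosome 14, where the intervals of both mice overlapped. Across the 19 autosomes the shares of the mice gave Pearson's r of 0.996 and Spearman's rho of 0.991, as a description of points that share genome and annotation.

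**Figure D1:**
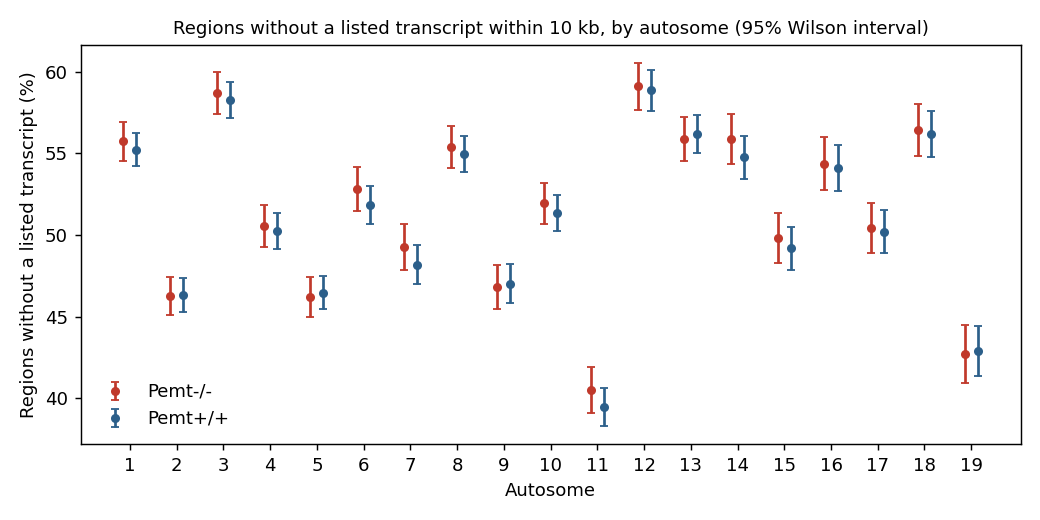
Share of autosomal regions without a listed transcript within 10 kb (percent, vertical axis) on each of the 19 autosomes (horizontal axis), 1 point per mouse with its Wilson 95% interval, on an axis that does not start at 0. The points of both mice lie close together on every autosome, from about 40% on chromosome 11 to about 59% on chromosome 12.

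The number of unannotated regions per Mb, counted over the stretch from the first to the last listed region of each autosome, was 20.4 in Pemt-/- and 27.3 in Pemt+/+. Chromosome 7 was the sparsest in both mice, with 15.9 and 21.7 per Mb. Chromosome 10 was the densest in Pemt-/- with 24.6 per Mb, and chromosome 13 in Pemt+/+ with 32.8 per Mb. A low share did not always go with a low density. Chromosome 11, lowest in share, had 16.4 and 22.8 per Mb, both below the average. Chromosome 19 had 21.3 and 29.3 per Mb, both above the average, beside many regions with a transcript. Taken over the 1622 Mb that lay more than 10 kb from any listed transcript, densities were 30.4 (30.1 to 30.7) and 40.7 (40.4 to 41.0) per Mb. Those 1622 Mb were 67.2% of the 2414 Mb counted. They are overstated by the unnamed genes, and can be by listed transcripts of which the lists do not give both edges.

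Along the chromosomes the unannotated regions were crowded towards the distal ends. Mouse autosomes have the centromere at one end, where positions start, and with each autosome cut into 10 equal parts the first part held 17.9 regions per Mb in Pemt-/- and 23.8 in Pemt+/+. The ninth part held 24.8 and 33.2 per Mb. The distal part held 30.1 and 40.7 per Mb, which came to 14.8% and 14.9% of all unannotated regions.

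The distal part lay above its autosome's own mean on 19 of 19 autosomes in both mice. It was the densest of the 10 parts on 11 autosomes in Pemt-/- and on 10 in Pemt+/+. The excess was greatest on chromosome 2, with 2.05 and 2.12 times the chromosome's mean, and smallest on chromosome 13, with 1.11 and 1.12 times. Regions with a transcript were crowded there too, since the share without one was 51.2% and 50.7% in the distal part against 55.1% and 54.6% in the first. Sharing between mice hardly changed with position. Over the 10 parts it ranged between 83.8% and 85.0% in Pemt-/-, and between 62.1% and 64.0% for Pemt+/+. Of the regions with over 200 tags, 10 of 17 in Pemt-/- and 12 of 23 in Pemt+/+ lay in the first part and 0 in the distal part, but 9 of those 10 and 10 of those 12 were at 1 site at the start of chromosome 9.

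**Figure D2:**
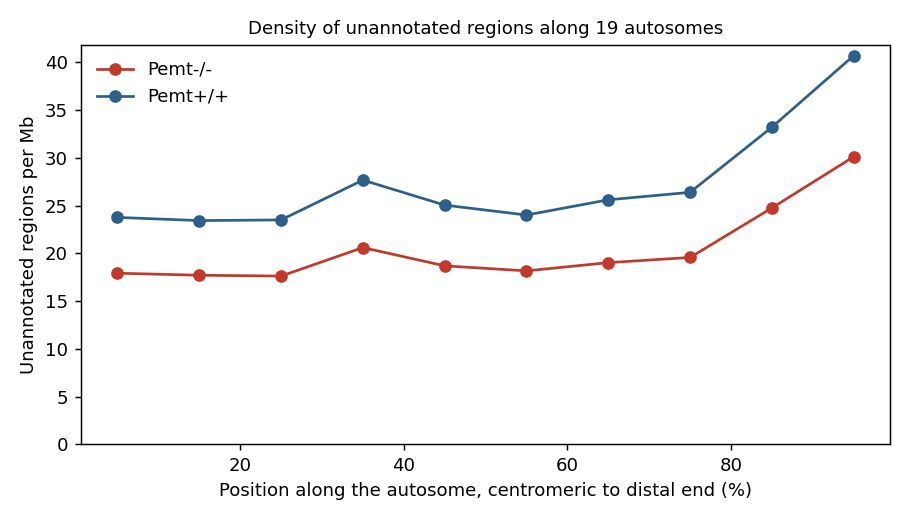
Unannotated regions per Mb (vertical axis) in 10 equal parts of each autosome from the centromeric to the distal end, summed over 19 autosomes (horizontal axis, percent of the chromosome), 1 point per part and mouse without error bars. Both mice stay near their level in the first part up to 80% of the length and rise over the last 2 parts, to 30.1 per Mb in Pemt-/- and 40.7 in Pemt+/+.

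In windows of 1 Mb the unannotated regions were spread widely but unevenly. Of 2426 windows, 35 held none in Pemt-/- and 30 held none in Pemt+/+. The median window held 17 (quartiles 11 and 26) and 23 (15 and 35), and the fullest held 121 and 155. The variance of the number per window was 9.65 and 12.9 times its mean, where independent placing at an even rate would make variance and mean alike. The counts of the mice followed each other across windows, with Pearson's r of 0.973, which describes windows that share genome, mappable length and CpG content.

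The fullest window, chr8:117000001-118000000 in mm9, the assembly of the lists, lay between Clec3a, which encodes a C-type lectin of cartilage, and Maf, which encodes a leucine zipper transcription factor. In Pemt-/- it contained 121 unannotated regions with 2566 tags, in Pemt+/+ 155 with 4689 tags, and no region with a transcript in either mouse. This is the stretch in which RefSeq places Wwox. The window at chr8:49000001-50000000, by Wwc2, was next with 118 and 153 regions. It was followed by chr12:107000001-108000000, with Vrk1 and Papola inside, which held 102 and 126. The window chr2:170000001-171000000, with Cyp24a1, the enzyme that inactivates vitamin D hormone, inside, held 91 and 124. The window chr8:111000001-112000000, around the homeobox factor gene Zfhx3, held 86 and 114, beside 30 and 49 regions with a transcript. RefSeq also places protein-coding genes named in none of the lists between the listed genes that flank each of the other windows. They are Dctd and Tenm3 for the window by Wwc2, and Ak7 for the window with Vrk1. For the window with Cyp24a1 they are Zfp217, Bcas1 and Dok5, and for that around Zfhx3 it is Pmfbp1. Whether these genes lie inside the windows was not looked up. These 5 windows were chosen as the fullest, so their size is a description only.

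Unannotated regions often followed each other without a region with a transcript between them. In Pemt+/+ there were 5692 such runs, with a median of 5 regions, and 61.5% of the unannotated regions were in runs of 20 or more. In Pemt-/- there were 5242 runs with a median of 4, and 53.4% were in runs of 20 or more. A list with more regions gives longer runs, so these values are not compared between mice.

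The longest run of Pemt+/+ reached from Wwc2 to Aga, the gene of a lysosomal glycoprotein hydrolase, at chr8:49086377-54575929. It contained 270 regions with 7824 tags, and 203 regions of Pemt-/- lay in the same 5490 kb, all without a transcript. RefSeq places Dctd and Tenm3, the latter a teneurin gene of 1297 kb, between these flanks. The next run, chr17:59212156-64617593 between Nudt12 and Pja2, held 259 regions in Pemt+/+ and 193 in Pemt-/-. RefSeq places Efna5, Fbxl17 and Fer between Nudt12 and Pja2, which encode an ephrin, an F-box protein and a tyrosine kinase. The run at chr12:107326418-109134408, between Vrk1 and Bcl11b, a zinc finger factor needed for T cells, held 195 regions in Pemt+/+ and 150 in Pemt-/-. RefSeq places no protein-coding gene between that last pair, so among the 3 longest runs it was the only one free of protein-coding genes in both sources. It was also the densest, with 108 regions per Mb in Pemt+/+ and 83.0 in Pemt-/-. Sharing within the 3 runs was 85.7%, 86.5% and 88.7% in Pemt-/- and 65.2%, 64.9% and 67.2% in Pemt+/+.

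In median tags and length the unannotated regions were nearly the same as the others. The median was 13 tags (quartiles 10 and 19) in Pemt-/- and 17 tags (12 and 26) in Pemt+/+, and regions with a transcript had the same medians and quartiles. The length of unannotated regions had a median of 422 bp in Pemt-/- and 423 bp in Pemt+/+, against 420 and 423 bp. With both kinds weighted to the same tag numbers, their mean length was slightly lower. It was 456 against 461 bp in Pemt-/- and 460 against 468 bp in Pemt+/+. The unannotated regions covered 22.5 Mb and 30.4 Mb in all. Their tags summed to 806285 in Pemt-/-, 51.9% of the tags in autosomal regions, and to 1444619 in Pemt+/+, 51.7%. Both shares of tags were a little above the shares of regions. Without regions of over 200 tags the tag shares were 51.6% and 51.5%.

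The deposited fold enrichment, the ratio of tags at a region to the background the caller used, was higher in the unannotated regions. Its median was 17.9 in Pemt-/- against 16.4 in regions with a transcript, and 17.6 in Pemt+/+ against 16.1. The medians were higher on 19 of 19 autosomes in both mice. They were higher in 9 of 9 classes of tag number in Pemt-/-, and in Pemt+/+ in 7 of 9 with the other 2 equal. With both kinds weighted to the same tag numbers, the mean fold enrichment was 19.2 against 17.9 in Pemt-/- and 19.3 against 17.9 in Pemt+/+. Why the ratio was higher was not tested, and the backgrounds themselves were not analysed here.

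The distance from an unannotated region to its nearest unannotated neighbour, on whichever side, had a median of 7.07 kb in Pemt-/- and 5.04 kb in Pemt+/+. Between regions with a transcript it was 5.87 and 4.10 kb. The nearest neighbour was over 50 kb away for 5.08% and 2.90% of unannotated regions, against 1.88% and 0.985%. Unannotated regions thus lay farther from their nearest neighbour at the median, and more of them had none within 50 kb. Gaps between successive regions can be longer than these distances and are not given here.

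Distance to the nearest listed transcript was rebuilt from the distances in the lists, and its median was 104 kb in Pemt-/- and 101 kb in Pemt+/+. Of 16204 transcripts placed, 4955 had both edges from the lists and 12931 at least 1. Where an edge was missing, the transcript was ended at its outermost region, so its extent can be too short. Unnamed genes are not counted at all, so these distances can be overstated. Only 5 and 9 regions came out at or under 10 kb. Since 10 transcripts whose rebuilt extent held an unannotated region had been dropped first, that small number was partly fixed by the method. Regions over 1 Mb from any listed transcript made up 4.06% and 3.84%. The median tags stayed at 13 or 14 in Pemt-/- and at 17 in Pemt+/+ in all 6 classes of distance, so tag numbers did not change with distance.

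Fold enrichment was higher farther out. In Pemt-/- its median was 16.7 at 10 to 25 kb and 18.5 at over 500 kb, and in Pemt+/+ it was 16.3 and 18.5. Sharing differed less. In Pemt-/- it was 84.3% (83.4 to 85.2) in the nearest class and 84.9% (83.9 to 85.8) in the farthest, within counting error. In Pemt+/+ it was 61.6% (60.6 to 62.6) and 66.2% (65.1 to 67.2), and 61.5% and 65.6% when tag numbers were made equal. The ratio of Pemt-/- to Pemt+/+ tags in paired regions stayed between 0.667 and 0.684 over the 6 classes.

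**Figure D3:**
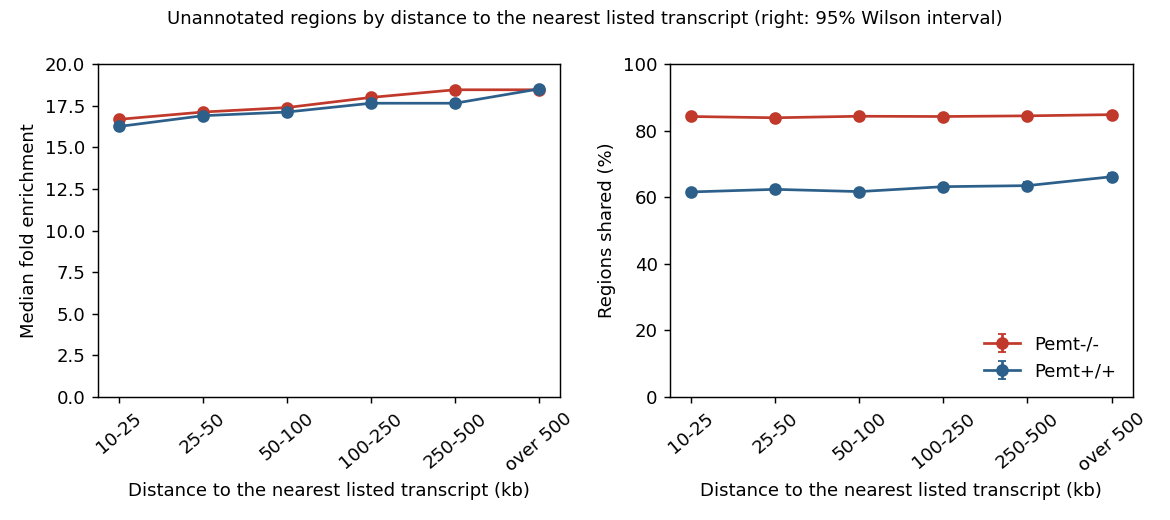
Median fold enrichment and share of regions overlapping a region of the other mouse (percent), each against the distance of unannotated regions to the nearest listed transcript (kb, 6 classes), 1 line per mouse, with Wilson 95% intervals for the shares. Fold enrichment climbs to about 18.5 in the farthest class in both mice, while sharing is flat in Pemt-/- and goes from 61.6% to 66.2% in Pemt+/+.

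The regions with the most tags were few and stood at the same places in both mice. The region at chr17:39979833-39985907, between the olfactory receptor gene Olfr136 and Crisp3, had 2101 tags in Pemt-/- against 1720 for Pemt+/+. In RefSeq the stretch between those genes also holds Rn18s-rs5, a sequence related to 18S ribosomal RNA, whose place in the assembly of the lists was not looked up. It was the only region of this group with more tags in Pemt-/-.

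At the start of chromosome 9, before Alkbh8, the region chr9:2999933-3003159 had 1704 tags in Pemt-/- against 1923 for Pemt+/+. The region chr9:3021961-3028125, the longest of Pemt-/- with 6165 bp, held 1998 tags, against 2258 in 2 regions of Pemt+/+. On chromosome 2, between Lrrc4c, the gene of a netrin-G ligand, and B230118H07Rik, the region chr2:98506326-98507561 held 1351 and 1369 tags. At the same site chr2:98502294-98503222 held 993 and 1026, and chr2:98505000-98505449, which lies between them, 209 and 216. The 3 pairs of that site were almost equal in tags, unlike most pairs.

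Of the unannotated regions, 17 in Pemt-/- and 23 in Pemt+/+ had over 200 tags, and 9 and 10 of those lay within the first 4 Mb of chromosome 9. They held 1.48% and 1.01% of the tags in unannotated regions. Their fold enrichment was low, with medians of 7.04 and 6.72. All 17 were shared in Pemt-/-, and 22 of 23 in Pemt+/+. Among the longest regions were also chr12:20235780-20240288, between Hpcal1 and Asap2, with 376 tags in Pemt-/- and 664 in Pemt+/+, and chr11:3000021-3006033 of Pemt+/+, with 812 tags against 347 in Pemt-/-.

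The regions of highest fold enrichment were 311 to 456 bp long and had 31 to 107 tags, above the upper quartile of tags in either mouse. The region chr14:43592776-43593231, between Sftpd, the gene of a lung surfactant protein, and Ear1, a ribonuclease gene of eosinophils, came first in both mice. It had a fold enrichment of 56.5 with 44 tags in Pemt-/- and of 59.2 with 43 tags in Pemt+/+. In Pemt-/- it was followed by chr13:47497756-47498072, between Rnf144b and Id4, with 54.0, and by chr4:10513724-10514055, between Gdf6 and 2610301B20Rik, with 53.7. In Pemt+/+ it was followed by chr14:42404750-42405060, also between Sftpd and Ear1, with 56.2, and by chr4:81141820-81142161, between Mpdz and Nfib, with 55.9. Each of these 5 regions had a counterpart in the other mouse, at a fold enrichment of 46.9 or more.

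Most unannotated regions of Pemt-/- were found again in Pemt+/+, whose list was longer. In Pemt-/-, 41578 of 49288 (84.4%, 84.0 to 84.7) overlapped a region of Pemt+/+ by at least 1 bp, against 82.3% of regions with a transcript. In Pemt+/+, 41535 of 65992 (62.9%, 62.6 to 63.3) overlapped a region of Pemt-/-, against 60.4%. The unannotated regions were thus shared more often by 2.09 percentage points (1.61 to 2.56) in Pemt-/- and by 2.50 (1.97 to 3.03) in Pemt+/+.

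The gap was also there at equal tag numbers and on nearly all autosomes. With tags weighted alike the shares were 84.4% against 82.2% and 62.9% against 60.7%. Unannotated regions were shared more often in 9 of 9 classes of tag number in both mice, on 18 of 19 autosomes in Pemt-/- and on 19 of 19 in Pemt+/+. Over the autosomes their sharing lay between 82.6% and 85.6% in Pemt-/- and between 59.6% and 65.1% for Pemt+/+, with chromosome 11 lowest in both. Of the shared regions, 99.9% in each mouse had a counterpart that was unannotated too, and 27 and 26 did not.

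Sharing followed the number of tags much more than the kind of region. Among unannotated regions of Pemt-/- it was 62.2% (61.2 to 63.2) at 8 or 9 tags, 92.1% at 14 to 16 tags and 100% of 185 at over 60 tags. In Pemt+/+ it was 24.5% (23.2 to 25.7) at 9 tags, the lowest number in that list, and 99.6% at over 60. A region near the lower limit of either list was therefore often absent from the other.

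**Figure D4:**
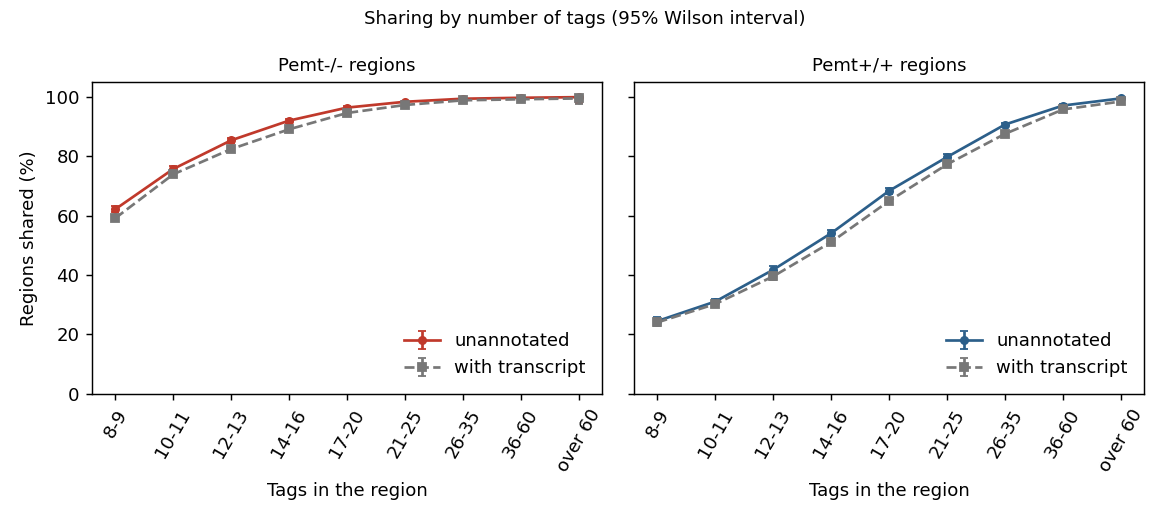
Share of regions overlapping a region of the other mouse by at least 1 bp (percent, vertical axis) against the tags of the region (9 classes, horizontal axis), for unannotated regions and regions with a listed transcript, in 1 panel per mouse with Wilson 95% intervals. Sharing climbs from 62.2% in Pemt-/- and 24.5% in Pemt+/+ to nearly all regions at over 60 tags, and the curve of unannotated regions lies slightly above the other.

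Of the unannotated regions, 7710 of Pemt-/- (15.6%) overlapped no region of Pemt+/+, where 16.7% of all autosomal regions did so. In Pemt+/+, 24457 (37.1%) overlapped none of Pemt-/-, beside 38.3% of all. Both counts lay slightly under the share over all regions. They depend on the unequal lengths of the lists: with lists of equal size, 74.0% of the unannotated regions of Pemt-/- and 72.9% of those of Pemt+/+ were shared. The unshared regions were small, with a median of 10 tags in Pemt-/- and 12 in Pemt+/+, against 14 and 22 tags for shared ones.

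Among those absent from the other longer list, the highest score in Pemt-/- was at chr12:48497935-48498484, between Stxbp6 and 3110039M20Rik, with 56 tags and a fold enrichment of 23.2. The nearest region of Pemt+/+ was 17448 bp away and held 58 tags. Others of the 5 highest in Pemt-/- lay between Gtf3c4 and 1700101E01Rik, Nck2 and Uxs1, and Agfg1 and Slc19a3, with 18 to 27 tags. The region by Gtf3c4, chr2:28851771-28852082, had 27 tags, and a Pemt+/+ region of 10 tags lay 1010 bp from it.

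In Pemt+/+ the 5 highest had 26 to 57 tags. The first, chr6:123634415-123634718, lay between the vomeronasal receptor genes Vmn2r22 and Vmn2r23, with 34 tags and a fold enrichment of 52.8. The next, chr17:27400731-27401075, with 37 tags, lay between Lemd2 and the glutamate receptor gene Grm4. The others lay between Serpinb2 and Cdh7, Api5 and Lrrc4c, and Lama1 and L3mbtl4. The last of these, chr17:68498901-68499535, had 57 tags, and a region of Pemt-/- with 10 tags lay 545 bp from it. Over all 10 of these regions the nearest region of the other mouse lay 545 to 84630 bp away.

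A second, shorter list exists for each mouse, whose purpose the files do not state. The deposited FDR of its autosomal regions was high, with a median of 100% in Pemt-/- and 32.5% in Pemt+/+. Only 1 region in Pemt-/- and 0 in Pemt+/+ had an FDR of 5% or less. In Pemt-/-, 999 unannotated regions (2.03%) were also in the shorter list of that mouse, where 2.12% of all autosomal regions were. In Pemt+/+, 2919 (4.42%) were, beside 4.57% of all. The differences from regions with a transcript were -0.197 percentage points (-0.380 to -0.0141) and -0.293 (-0.521 to -0.0650). Within the shorter lists themselves, 1036 of 2124 autosomal regions (48.8%, 46.7 to 50.9) and 2951 of 5965 (49.5%, 48.2 to 50.7) had no transcript. Each of these shares was lower than in the longer list of the same mouse.

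Tags were compared directly in pairs, regions of both mice that overlapped each other and no further region. Of these, 40870 pairs were unannotated in both mice, with a median ratio of Pemt-/- to Pemt+/+ tags of 0.673 (0.667 to 0.679). The 37390 pairs with a transcript in both had a median of 0.688 (0.688 to 0.692). Among pairs with at least 40 tags together, the medians were 0.620 (0.615 to 0.622) over 17642 unannotated pairs and 0.630 (0.627 to 0.634) over 15839 others. The ratio of unannotated pairs was the lower on 17 of 19 autosomes, higher on 1 and equal on 1. The depth of each library is not known and what sets the overall level of the ratio was not tested, so only the small gap between kinds of region is described here. The gap between medians was not the same at all sizes. At 30 to 39 tags together both medians were 0.667, while the ratio of summed tags was 0.669 for unannotated pairs against 0.681 for the others. At 200 tags or more the medians went the other way, but over few pairs and with overlapping intervals. Over the autosomes the median of unannotated pairs stayed between 0.667 and 0.689.

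The ratio changed with the size of the pair. It was 0.786 at 17 to 29 tags together, where a pair exists only if both regions passed the lower limit of their lists. It fell to 0.629 at 40 to 59 tags and stayed at 0.612 and 0.618 in the next 2 classes, below 200 tags. From 200 up to 400 tags it was 0.648 (0.553 to 0.703) over 32 pairs, against 0.598 in 55 pairs with a transcript. The 15 pairs of 400 tags or more had a median of 0.886 (0.741 to 0.968), against 0.740 in 6 pairs with a transcript, with 9505 tags in Pemt-/- and 10655 in Pemt+/+. They spanned 0.427, at the start of chromosome 11, to 1.22, at the region of chromosome 17 with the most tags. Of the 15, 6 lay at the start of chromosome 9 and 3 at the site on chromosome 2 described above. The long region of chromosome 12 named above had 0.566.

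**Figure D5:**
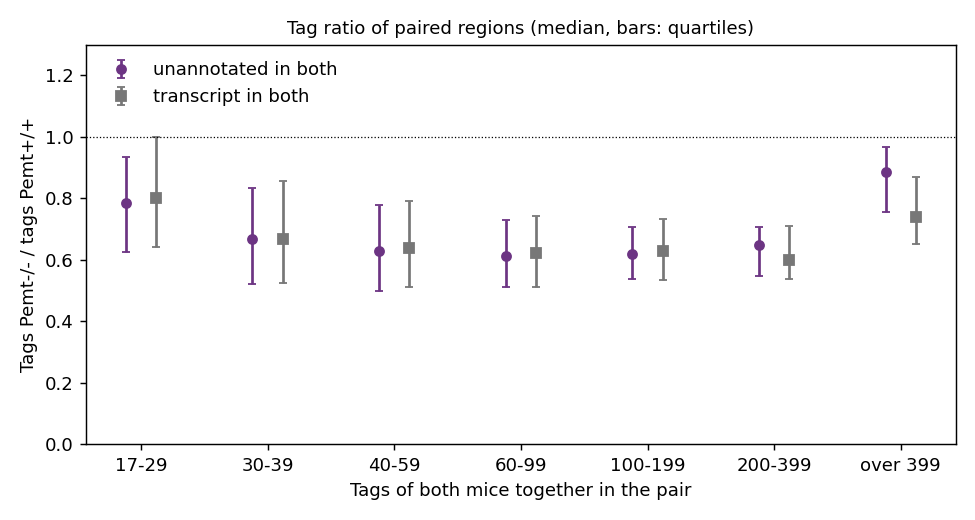
Median ratio of Pemt-/- to Pemt+/+ tags (vertical axis) against the tags of both regions of a pair together (classes, horizontal axis), for pairs unannotated in both mice and pairs with a listed transcript in both, with bars from the lower to the upper quartile and a dotted line at equal tags. Unannotated pairs go from 0.786 in the smallest class to about 0.61 in the middle classes and 0.886 over the 15 largest.

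Relative to the median ratio of all pairs, 0.625 at 40 tags or more, 223 of 17642 unannotated pairs (1.26%, 1.11 to 1.44) lay at least 2-fold above, where 1.41% of all autosomal pairs did. Below by at least 2-fold lay 341 (1.93%, 1.74 to 2.15), where 1.94% of all did. Neither count stood out from all pairs.

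The pair with the highest ratio lay between Snx30 and Mup9, a gene of the major urinary proteins that the liver secretes, at chr4:60121902-60123246. It had 41 tags in Pemt-/- against 16 for Pemt+/+, so 71.9% (59.2 to 81.9) of its tags came from Pemt-/-. The next ones were by Osbp, the gene of an oxysterol binding protein, at chr19:11998095-11998802 with 28 and 12 tags, and by the zinc transporter gene Slc30a9 at chr5:67770635-67771753 with 29 and 13. The Pemt-/- region was the longer one in each of these 3 pairs.

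The lowest ratio was at chr11:6733959-6734393, between Ramp3 and the adenylate cyclase gene Adcy1. It had 8 tags in Pemt-/- against 59 for Pemt+/+, and 11.9% (6.18 to 21.8) of its tags came from Pemt-/-. It was followed by chr5:119460422-119460766, between Med13l and the T-box factor gene Tbx3, with 8 and 48 tags. The third, on chromosome 18 between Mc2r and Tcf4, had 8 and 47. In all 3 the Pemt-/- region had the smallest tag number in its list, and the Pemt+/+ region was over 2-fold longer. These 6 pairs are the ends of 17642, and with 1 library per genotype their ratios have no replicate check.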

How the data were processed

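Liver DNA of Pemt-/- and Pemt+/+, 1 library each, was enriched for methylated fragments and sequenced by the authors. The submitters' processing notes name CASAVA version 1.8.2, Bowtie and the mouse assembly mm9. The caller's version, its control and the treatment of duplicate reads are not given in the sources used here, and each can change tags and calls. The region names have the form that MACS gives. The records speak of bisulphite-converted DNA, whereas the methods name the enrichment alone.

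The deposited lists have 1 line per region and transcript, within 10 kb. Tags are counts of reads as deposited. The deposited fold enrichment is a ratio of tags to background. A score, 10 times the −log10 of the p-value found by the authors, runs from 50 (p of 1e-05) to a ceiling of 3100. The deposited FDR is a percent. Library totals are not in these lists.

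Each region was used once. Transcript positions were rebuilt from the distances in the lists. RefSeq (GRCm38.p6) gave names, lengths and gene order, not positions. Shares have Wilson intervals, medians intervals from order statistics, densities Poisson intervals, and differences of shares Newcombe intervals, all 95%. For equal tag numbers, classes were weighted alike with tags above 40 joined. Named regions followed a rule: per mouse the 5 with the most tags, the 3 longest, the 3 of highest fold enrichment and the 5 of highest score in that mouse only, then the 3 highest and lowest pair ratios, the 5 fullest windows and the 3 longest runs. Members and lists were chosen with earlier results of these data known. Alternatives were the upper 50% by score, lists of equal size, all chromosomes, 50% reciprocal overlap and pairs of at least 40 tags. Leaving out regions of over 200 tags, and the stretches around 366 unlisted long genes, was chosen after seeing the data. Python version 3.11.15 was used with pandas version 2.3.3, numpy version 2.4.6, scipy version 1.17.1 and matplotlib version 3.10.9, and the functions were tested on simulated data. Region sequences were not used here. Values of some named regions are not reported here.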

Additional observations from a re-analysis of the deposited data

Results flagged for a closer look

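Regions without a listed transcript also existed outside the autosomes, in data that the comparisons above did not use. On chromosome X there were 722 in Pemt-/- and 1170 in Pemt+/+. Chromosome Y with its unplaced part held 157 and 245, and the other unplaced sequences held 128 and 147. On the mitochondrial genome each list had 1 region, with 2589 tags in Pemt-/- and 3368 in Pemt+/+. Of those on X, 79.9% in Pemt-/- and 49.6% in Pemt+/+ overlapped a region of the other mouse.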

How the results depend on the processing

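Of 64 recomputed values that could move, 20 moved by less than their counting error and 44 by more, and none has a replicate check. Another 9, those of Pemt-/- with lists of equal size, could not move, since its list is the shorter one. Some of the 44 could not stay either, since keeping fewer regions lowers the number per Mb, and a cut by score favours regions with more tags. The split into 20 and 44 is therefore no measure of how stable the results are. With the upper 50% of each list by score, the values of Pemt-/- and Pemt+/+ were in turn 53.8% and 53.4% for the share without transcript, 15.9 and 21.3 for regions per Mb away from transcripts, 18 and 25 tags, 437 and 456 bp, 22.6 and 23.0 for fold enrichment, 80.2% and 59.8% for sharing, 1.66% and 5.13% for presence in the shorter list, and 111 and 107 kb to a transcript. The lowest share of an autosome was then 43.0% and 42.4%, the highest 61.9% and 60.8%, and the pair ratio 0.657. With lists of equal size, sharing was 74.0% and 72.9%. Pemt+/+ then had a share of 52.2% (lowest autosome 40.7%), 30.7 regions per Mb, 20 tags, 431 bp, a fold enrichment of 19.7, 5.07% in the shorter list and 103 kb to a transcript, and the pair ratio was 0.647. With all chromosomes, density was 27.4 and 36.8 per Mb, the distance 106 and 104 kb, and the share in Pemt+/+ 51.5%. With 50% reciprocal overlap sharing was 79.7% and 59.5%. At 40 tags or more the pair ratio was 0.620. Without regions of over 200 tags the tag shares were 51.6% and 51.5%. Without the stretches around the 366 unlisted genes described above, 42.0% and 41.5% of all autosomal regions were left as unannotated, and their sharing, tags and fold enrichment moved by less than counting error. The excess of sharing over regions with a transcript stayed between 1.66 and 3.54 percentage points in every setting tried for it. No paired analysis was possible because there is only 1 library for either mouse. Leaving out a library would leave 1 genotype only and was not run.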
